A study of Mus musculus with 6 samples.

Results

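Translation initiation factors are the proteins that bring a ribosome to the start codon of an mRNA. The family described here holds every protein-coding mouse gene whose symbol is Eif followed by a digit. The kinases Eif2ak1 to Eif2ak4, which phosphorylate an initiation factor but are not factors themselves, were left out, as were pseudogenes. Of 66 annotated symbols of that form, 51 were members, among 29370 genes in the deposited gene matrix. The members fell into 5 eIF1, 11 eIF2, 14 eIF3, 16 eIF4 and 4 eIF5 genes and Eif6 as the 1 eIF6 gene. Membership rested on the symbol. The one measured value that entered was the share of a gene's transcript reads that its row of the gene matrix held: below 90% the member was read from the sum of its transcripts instead. Eif2b4, at 90.4%, was the member just inside that threshold and Eif4g3, at 75.0%, the one just outside. Eif1a (72.8%), Eif4e (57.9%), Eif4h (36.7%) and Eif5 (35.4%) were also read from transcript sums.

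The study asked how palmitate, a saturated fatty acid, acts on CD8+ T cells, which kill virus-infected and tumour cells. All cells were wild-type mouse CD8+ T cells described as coming from pancreas, spleen and lymph nodes and kept in complete T cell medium. One group of 3 libraries came from cells given 100 µM palmitate and the other of 3 from control cells, compared after 48 h of exposure. The vehicle used for control cells and the age of the mice are not given in the sources used here. Whether the 3 libraries of a group came from separate animals or cultures is also not labelled, so the p-values below measure the spread between these libraries.

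The gene matrix summed to between 26042768 and 29362276 estimated counts per control library and between 16724588 and 24777611 per palmitate library. Palmitate 3 was the shallowest. The 8 CD8+ T cell markers checked (Cd3d, Cd3e, Cd3g, Cd8a, Cd8b1, Trac, Gzmb and Prf1) summed to 6429 to 8120 CPM (counts scaled to a common library size) in control and 5018 to 5758 CPM in palmitate libraries. The 8 B and plasma cell markers summed to 157.4 to 218.8 CPM in control and 239.8 to 260.2 CPM in palmitate libraries. The 3 NK cell markers (Ncr1, Klrb1c and Eomes) summed to 153.7 to 169.0 and 129.4 to 146.4 CPM, respectively. A sum does not show which of its genes carried a difference, nor that the reads came from that cell type. The 4 fibroblast and endothelial markers summed to 32.6 to 38.2 and 42.2 to 57.6 CPM. The 3 CD4 T cell markers summed to 0.60 to 0.77 and 0.92 to 1.28 CPM and the 2 erythroid markers to 0.91 to 1.79 and 3.75 to 5.91 CPM. All of these lists differed without overlap, higher with palmitate except for the CD8+ T cell and NK lists. The 6 myeloid markers (0.84 to 1.38 and 1.02 to 1.82 CPM, with S100a8 at 0) and the 4 pancreas markers (1.22 to 1.91 and 1.39 to 2.39 CPM) overlapped. The part of these marker differences in the results below was not tested. In such bulk libraries, fewer cells of a type and less RNA per cell cannot be told apart.

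Initiation begins when eIF2, a GTP-binding complex, carries the initiator tRNA to the small ribosomal subunit, where eIF1, eIF1A, eIF3 and eIF5 also bind. The eIF4F complex recognises the mRNA cap through eIF4E, is held together by the scaffold eIF4G and unwinds the leader with the helicase eIF4A, so that the loaded subunit can scan to the start codon. There eIF5 promotes GTP hydrolysis on eIF2, eIF5B joins the large subunit, and eIF2B later reloads eIF2 with GTP. Activated CD8+ T cells grow and divide quickly and are known for a steep rise in protein synthesis, which draws on all of these steps.

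In palmitate-treated cells mRNAs of 15 initiation factors were lower, among them the cap-binding Eif4e, the scaffold Eif4g1, the helicase Eif4a1 and subunits of eIF2 and eIF2B. Of 49 members that passed the filter on low counts, 15 fell and 0 rose with palmitate (edgeR's quasi-likelihood test, Benjamini-Hochberg adjusted p under 0.05 over all genes). Those 15 are 30.6% of the members tested. Across all 12068 genes tested in the gene matrix, 22.9% were called, 11.1% higher and 11.7% lower. Across the 13088 genes tested as transcript sums, 25.8% were called, 12.2% higher and 13.5% lower. The balance depended on scaling: 1343 genes of the matrix were higher and 1416 lower, against 1651 and 1052 with upper-quartile scaling (1600 and 1771, against 1954 and 1318, as transcript sums). With that scaling 11 members fell and 1, Eif4a2, rose. Before adjustment, p was under 0.05 for 22 members with lower values and for 1, Eif4a2, with a higher value. DESeq2 called 21 members lower and 0 higher, and limma-voom 15 lower and 0 higher; each kept all 15 calls. With the replicate number as a block, 22 members fell and 1 rose, beside 33.1% of all genes called in the gene matrix (16.6% lower, 16.5% higher) and 38.7% as transcript sums (19.9% lower, 18.8% higher).

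The shifts were small. The members' median log2 fold change was −0.20 (range −0.57 to 0.24), with 41 below 0 and 8 above, while the median over all genes tested was 0.02. Initiation factors are abundant mRNAs, and abundant mRNAs fell more often than they rose, by a level of 100 CPM chosen after seeing the data. Among the 2256 genes of the matrix with a mean of 100 CPM or more, 23.8% fell and 7.14% rose, with a median of −0.12. As transcript sums the same class held 28.2% that fell and 7.48% that rose, with a median of −0.14. The 38 members of that abundance had 13 that fell (34.2%) and a median of −0.20. Of the 11 less abundant members, 2 fell (18.2%).

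Calls near the threshold depended on single libraries. Leaving out control 3 left 0 members past the threshold by edgeR's quasi-likelihood test, although 41 of 49 members were still below 0 with a median of −0.18. Taken before adjustment, p was under 0.05 for 17 members with lower values and for 1 with a higher value. Leaving out control 2, palmitate 1 or palmitate 3 left 7 each, leaving out palmitate 2 left 9 and leaving out control 1 gave 19. Eif2b1, Eif3j1, Eif3j2, Eif4e and Eif5a2 kept their call in 5 of the 6 sets, with an adjusted p of 0.051 to 0.0543 in the set without control 3, and Eif1ad and Eif4g1 in 4. The other 8 called members kept it in 2 or fewer, and Eif5a in 0.

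**Figure D1:**
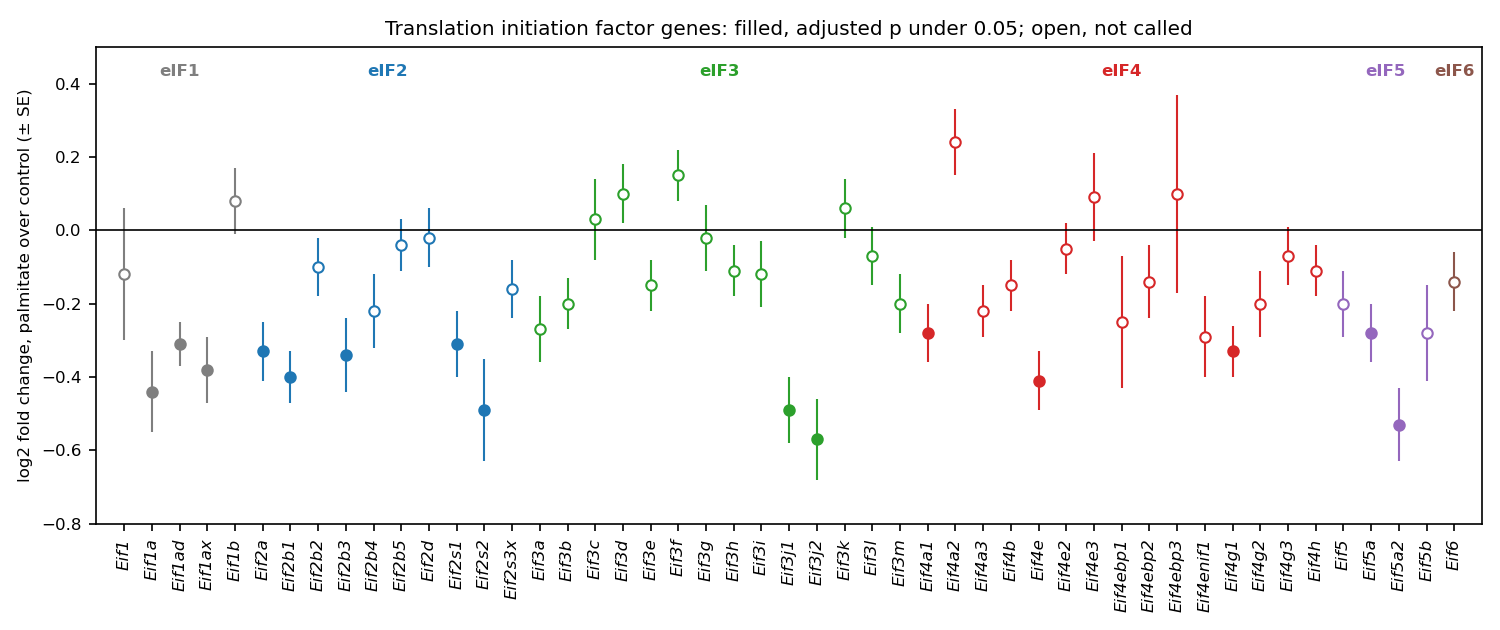
Log2 fold change of each tested member, palmitate over control, with its standard error, grouped by factor; the marker shows whether the member passed the adjusted threshold of 0.05. The 15 members that fell lie between −0.57 and −0.28, and Eif4a2 has the highest value, 0.24.

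The groups compared as follows. In the eIF1 group 3 of 5 members fell (median log2 fold change −0.31), in the eIF2 group 5 of 10 tested (−0.27) and in the eIF5 group 2 of 4 (−0.28). In the eIF4 group 3 of 15 tested fell (−0.15), and in the eIF3 group, 2 of 14 (−0.12). Eif6, which keeps the large ribosomal subunit from joining too early, was at −0.14 ± 0.08 (SE; adjusted p = 0.25). With the replicate block the eIF3 group had 5 that fell, the eIF4 group 5 that fell and 1 that rose, and all 4 eIF5 members fell. Over all genes of the matrix 11.7% fell, and 23.8% of those with a mean of 100 CPM or more. As transcript sums these shares were 13.5% and 28.2%. With the block 16.6% of all genes fell in the matrix and 19.9% as transcript sums. These groups are small, and the differences between them were not tested.

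Measured in TPM, the length-corrected share of all transcripts in a library, the family took up 14797 ± 307 TPM in control and 13527 ± 364 TPM in palmitate libraries (SD, n = 3 each). The 3 control libraries summed to 14451.7, 15038.6 and 14899.6 TPM and the 3 palmitate libraries to 13304.1, 13946.4 and 13330.2 TPM. Every palmitate library was below every control library, and the ratio of the means was 0.914. The eIF2 sum went from 1654.9 ± 54.7 to 1416.8 ± 81.2 TPM (ratio 0.856), the eIF5 sum from 1764.1 ± 57.7 to 1512.8 ± 19.9 TPM (0.858) and the eIF3 sum from 4115.0 ± 26.2 to 3853.9 ± 76.0 TPM (0.937), none of them overlapping. The eIF4 sum, 5829.2 ± 170.0 and 5441.0 ± 202.0 TPM, overlapped between groups, as did the eIF1 sum. Abundant mRNAs dominate such sums. All genes of the matrix with a mean of 100 CPM or more had a median log2 fold change of −0.12 (−0.14 as transcript sums). Whether these sums fell more than those of other abundant genes was not tested.

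Per length, the most abundant member was the helicase Eif4a1, at 1925 ± 63.8 TPM in control and 1640 ± 83.5 TPM in palmitate cells. The next were Eif5a (1353 ± 64.1 and 1134 ± 28.4 TPM) and the second eIF4A helicase Eif4a2 (1026 ± 73.3 and 1257 ± 105.0 TPM). In TPM, Eif5a ranked above Eif4a2 in control cells and below it on the means in palmitate cells. In mean CPM Eif5a was above Eif4a2 in both, at 1412 and 1163 against 715.1 and 846.0. A 643-base Eif4a2 transcript annotated as a retained intron held 291.7 to 413.4 TPM in control and 445.0 to 557.7 TPM in palmitate libraries. In the remaining groups the highest members were Eif3m (807.6 ± 42.7 and 694.6 ± 22.2 TPM), Eif1 (570.5 ± 129.0 and 566.0 ± 57.9 TPM) and Eif2s3x (447.1 ± 5.57 and 422.9 ± 26.5 TPM). Eif1 and Eif2s3x overlapped between the groups. A 383-base non-coding transcript held 217.3 to 377.3 TPM of Eif1 in control and 297.0 to 332.1 TPM in palmitate libraries. In mean CPM Eif1a (443.6 in control and 326.2 in palmitate) was above Eif1 (260.3 and 238.7).

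**Figure D2:**
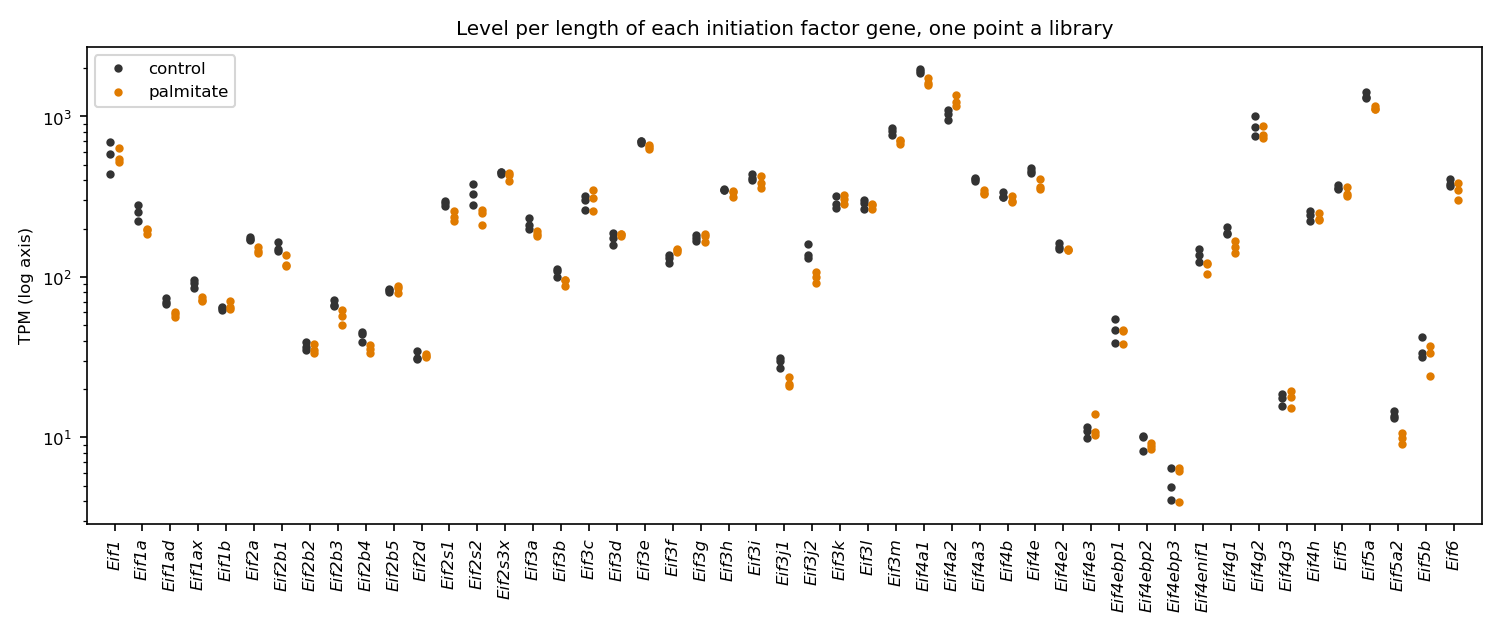
Level of each tested member in TPM (log axis) in control and palmitate cells, with the 3 libraries of each group as points. Eif4a1 is the highest member in both groups. Eif2s3y and Eif4e1b, which were not tested, are not drawn.

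The eIF4F cap complex held 3 of the called members. Eif4e, which encodes the protein that binds the mRNA cap, was measured as transcript sums at 317.7, 372.9 and 361.8 CPM in control and 249.5, 269.0 and 275.4 CPM in palmitate libraries. Every palmitate library was lower than every control library, and Eif4e fell by 0.41 ± 0.08 on the log2 scale (SE, edgeR's quasi-likelihood test; adjusted p = 0.00979). Eif4g1, the main scaffold, was at 893.0, 854.2 and 822.1 CPM in control and 692.8, 698.2 and 646.6 CPM in palmitate libraries. Again the groups did not overlap, and Eif4g1 fell by 0.33 ± 0.07 (adjusted p = 0.0162).

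Eif4a1, the helicase that unwinds mRNA leaders, was at 2965, 3035 and 3226 CPM in control and 2334, 2714 and 2560 CPM in palmitate libraries. It fell by 0.28 ± 0.08 (adjusted p = 0.0444), the groups did not overlap, and the call was kept in 2 of 6 sets that left out 1 library. The annotation holds a processed pseudogene, Eif4a-ps4, whose reads may be shared with Eif4a1, and its row varied between 22.5 CPM in control 3 and 220.3 CPM in control 2. Adding that row to Eif4a1 gave 3141, 3255 and 3249 CPM in control and 2473, 2931 and 2718 CPM in palmitate libraries. The sum was lower in every palmitate library, by 0.25 on the log2 scale (exact permutation test, two-sided p = 0.1, the smallest that 3 against 3 libraries can give).

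Eif4a2, a close paralogue of Eif4a1, was at 650.7, 720.5 and 773.9 CPM in control and 809.5, 911.3 and 817.1 CPM in palmitate libraries. All 3 palmitate libraries were above all 3 control libraries. The log2 difference of 0.24 ± 0.09 did not pass the threshold (adjusted p = 0.0841); with the replicate block Eif4a2 rose (adjusted p = 0.041), and with upper-quartile scaling it also passed. Eif3f, a scaffold subunit of eIF3, was the other member whose palmitate libraries all lay above the controls (0.15 ± 0.07, adjusted p = 0.168). In the other direction 26 members did not overlap, the 15 called ones included, and 21 overlapped. Over all genes of the matrix 21.2% were without overlap and lower in palmitate and 21.6% without overlap and higher (22.1% and 21.8% as transcript sums).

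The promoters of these cap complex genes are shown to set those of 3 members that fell beside that of Eif4a2, which was not called. Each is the 250 bases upstream of a RefSeq transcription start, GRCm38.p6, 5′ to 3′ on the gene's strand, with capitals marking CACGTG, the E-box letters bound by MYC and related factors. The windows are chr3:138527018-138527267 (plus strand) for Eif4e, chr16:20672477-20672726 (plus) for Eif4g1, chr11:69672424-69672673 (minus) for Eif4a1 and chr16:23107218-23107467 (plus) for Eif4a2.
Eif4e: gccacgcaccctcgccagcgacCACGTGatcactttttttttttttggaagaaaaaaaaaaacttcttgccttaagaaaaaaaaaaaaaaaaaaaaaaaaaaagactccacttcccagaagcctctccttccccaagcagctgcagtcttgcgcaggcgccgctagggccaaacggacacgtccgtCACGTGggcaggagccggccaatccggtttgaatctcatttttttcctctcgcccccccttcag
Eif4g1: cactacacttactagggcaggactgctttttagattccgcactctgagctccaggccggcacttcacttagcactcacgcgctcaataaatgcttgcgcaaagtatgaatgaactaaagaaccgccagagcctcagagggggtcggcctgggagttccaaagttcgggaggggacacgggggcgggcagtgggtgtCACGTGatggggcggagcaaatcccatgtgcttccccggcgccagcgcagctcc
Eif4a1: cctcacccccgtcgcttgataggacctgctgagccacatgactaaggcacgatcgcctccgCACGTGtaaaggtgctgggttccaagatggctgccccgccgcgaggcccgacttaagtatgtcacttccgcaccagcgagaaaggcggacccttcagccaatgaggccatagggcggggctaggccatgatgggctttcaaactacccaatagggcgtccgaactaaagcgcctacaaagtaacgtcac
Eif4a2: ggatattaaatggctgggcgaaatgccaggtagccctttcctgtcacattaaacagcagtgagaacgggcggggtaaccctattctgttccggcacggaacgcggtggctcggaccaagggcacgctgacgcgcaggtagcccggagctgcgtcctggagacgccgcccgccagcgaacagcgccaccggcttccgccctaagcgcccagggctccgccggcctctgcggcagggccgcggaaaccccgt

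The Eif4e window held CACGTG 228 and 64 bases upstream of the start, the Eif4g1 window 54 bases upstream and the Eif4a1 window 189 bases upstream, while the Eif4a2 window held none. Eif4e has a further RefSeq start whose window also held none. RefSeq windows were matched by symbol for 39 of the 51 members, 5 of them with more than 1 window, and a gene was counted when any of its windows held the motif. CACGTG, which reads the same on both strands, was present in 9 of the 39 (23.1%), in 9.92% of 9207 genes tested in the matrix that have a window, and in 6.86% of all 27025 genes with one. Among members that fell it was present in 5 of 12 (41.7%): Eif4a1, Eif4e, Eif4g1, Eif5a and Eif5a2. Eif5a had several windows, some of them without the motif, and a gene with more windows had more chances to be counted. Among members tested and not called it was present in 4 of 26 (15.4%): Eif1b, Eif3f, Eif3k and Eif4h. CCGGAAG, a sequence recognised by ETS factors and searched on both strands, was present in 12 of 39 members (30.8%) and 16.5% of tested genes. It was present in 4 of 12 members that fell (33.3%) and 8 of 26 not called (30.8%). TATAAA, searched on both strands, was present in 4 members (10.3%) and 7.73% of tested genes. Member windows had a median GC content of 62.0%, against 59.6% for tested genes. These are counts of letters and not of binding sites.

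The opposite values of the eIF4A paralogues were read within each library as a log2 ratio of TPM. Eif4a2 over Eif4a1 was −1.03, −0.84 and −0.86 in control and −0.35, −0.34 and −0.47 in palmitate libraries. No library overlapped, and the ratio was 0.52 higher with palmitate, the largest shift among the 12 ratios tested (exact permutation test, two-sided p = 0.1, adjusted over 12 ratios to 0.3, where 0.1 is the smallest unadjusted p). A difference of this kind shows unequal change and not which member moved. In each set that left out 1 library it stayed between 0.47 and 0.57.

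A further 3 ratios did not overlap, each at an exact permutation p of 0.1 (adjusted p = 0.3). Eif4g3, a second scaffold, over Eif4g1 was 0.34 higher with palmitate. The cap-binding paralogue Eif4e2, which acts in translational repression, over Eif4e was 0.22 higher. Eif3j1 over Eif3j2 was 0.11 higher. In these ratios the denominator was a member that fell. Eif4g3 itself had a log2 fold change of −0.07 and Eif4e2 of −0.05, neither past the threshold. Eif3j1 fell as well (−0.49, edgeR adjusted p = 0.0097), and how reads divided between Eif3j1 and Eif3j2 is uncertain.

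The remaining ratios overlapped between groups. They were Eif4e3 over Eif4e (0.40 higher, p = 0.2), Eif4ebp2 over Eif4e (0.20, p = 0.3), Eif4g2 over Eif4g1 (0.18, p = 0.4), Eif1b over Eif1 (0.05, p = 0.9), Eif4ebp1 over Eif4ebp2 (0.00, p = 1.0), Eif4a3 over Eif4a1 (−0.04, p = 0.7), Eif1a over Eif1ax (−0.06, p = 0.4) and Eif5a2 over Eif5a (−0.23, p = 0.2), all by the exact permutation test. Eif4a3 is the helicase of the exon junction complex rather than of cap-dependent initiation.

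**Figure D3:**
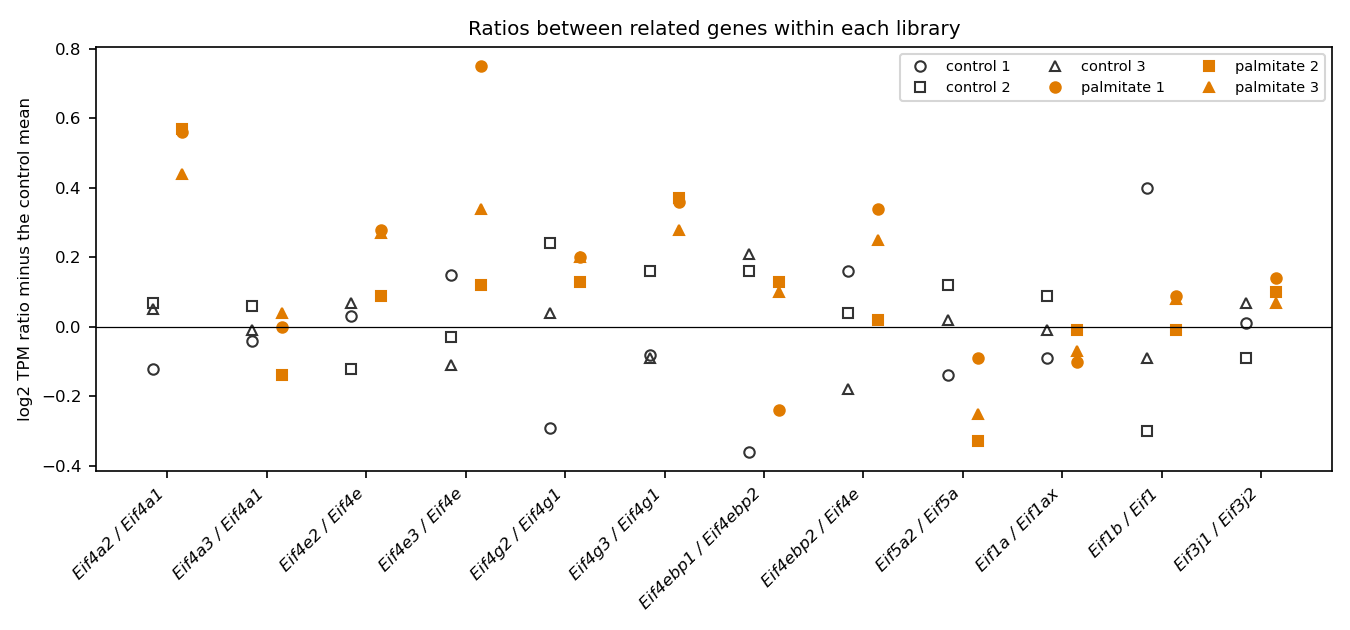
Log2 ratio of TPM between related initiation factors in each control and palmitate library, drawn as the difference from the control mean of that ratio. Before this subtraction Eif4a2 over Eif4a1 lay between −1.03 and −0.84 in control and between −0.47 and −0.34 in palmitate libraries.

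The rest of the eIF4 group did not pass the threshold. Eif4g2, a scaffold that lacks the eIF4E-binding region, was at −0.20 (adjusted p = 0.124), Eif4b, which stimulates eIF4A, at −0.15, and Eif4h, a related stimulator, at −0.11. The eIF4E-binding repressors gave no call in the main test. Eif4ebp1 was at −0.25 ± 0.18 (adjusted p = 0.343), Eif4ebp2 at −0.14, Eif4ebp3 at 0.10 ± 0.27 and the eIF4E transporter Eif4enif1 at −0.29 (adjusted p = 0.0901). Eif4enif1 fell with the replicate block (adjusted p = 0.0121) and with DESeq2 (0.0437). The helicase Eif4a3 (−0.22, adjusted p = 0.0624) likewise fell with the block (0.034) and with DESeq2 (0.0175). Eif4b fell with DESeq2 (adjusted p = 0.0224) but not with the block (0.116). These are mRNA levels, and the eIF4E-binding proteins are controlled largely by phosphorylation, which was not measured. Eif4e1b, an egg-type cap-binding gene, had 23 reads over the 6 libraries and was not tested.

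In the eIF2 complex, the alpha and beta subunits fell. Eif2s1, the alpha subunit that stress kinases phosphorylate, was at 629.1, 682.1 and 729.6 CPM in control and 495.8, 574.6 and 572.8 CPM in palmitate libraries. Its groups did not overlap, and it fell by 0.31 ± 0.09 (edgeR's quasi-likelihood test; adjusted p = 0.0402). Eif2s2, the beta subunit, was at 553.5, 761.2 and 692.0 CPM in control and 404.1, 506.6 and 517.8 CPM in palmitate libraries. It fell by 0.49 ± 0.14 (adjusted p = 0.0398), and control 1 lay close to the highest palmitate libraries. Both calls were kept in 1 of 6 sets that left out a library. The gamma subunit Eif2s3x was at −0.16 (adjusted p = 0.183), and its Y-linked copy Eif2s3y had 11 reads over all 6 libraries and was not tested.

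The exchange factor eIF2B has 5 subunits, of which 2 fell. Eif2b1, the regulatory alpha subunit, was at 149.8, 138.2 and 144.3 CPM in control and 102.3, 116.9 and 109.2 CPM in palmitate libraries. It fell by 0.40 ± 0.07 (adjusted p = 0.00995) with no overlap. Eif2b3, the gamma subunit, was at 90.6, 101.2 and 96.1 CPM in control and 65.1, 82.6 and 80.5 CPM in palmitate libraries. It fell by 0.34 ± 0.10 (adjusted p = 0.0456), a call that was lost when transcript sums with length offsets were used (adjusted p = 0.0599) and kept in 1 of 6 sets that left out a library. Eif2b2, Eif2b4 and Eif2b5, which encodes the catalytic subunit, were at −0.10, −0.22 and −0.04, with no call, and Eif2b5 was at 0.02 with upper-quartile scaling.

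Eif2a, a separate protein that can deliver initiator tRNA without eIF2, was at 267.8, 295.2 and 292.4 CPM in control and 213.5, 240.2 and 228.8 CPM in palmitate libraries. It fell by 0.33 ± 0.08 (adjusted p = 0.0211) with no overlap between groups. Eif2d, which acts in reinitiation and ribosome recycling, was at −0.02, or 0.04 with upper-quartile scaling.

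In the eIF1 group the members that fell were the eIF1A genes and Eif1ad. Eif1a was measured as transcript sums at 371.3, 490.2 and 469.5 CPM in control and 302.6, 321.0 and 354.9 CPM in palmitate libraries, and Eif1a fell by 0.44 ± 0.11 (adjusted p = 0.0209). Its own row of the gene matrix gave −0.39 with no call (adjusted p = 0.0572). Eif1ax, its X-linked copy, was at 294.5, 350.8 and 348.1 CPM in control and 246.7, 243.3 and 275.6 CPM in palmitate libraries, and Eif1ax fell by 0.38 ± 0.09 (adjusted p = 0.0246). In both, control 1 was the lowest control and still above every palmitate library. The pair encode nearly identical proteins that promote scanning, and the division of reads between them is uncertain.

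Eif1ad, which encodes a nuclear protein with an eIF1A-like domain, was at 134.2, 148.0 and 140.9 CPM in control and 112.4, 115.5 and 113.3 CPM in palmitate libraries. It fell by 0.31 ± 0.06 (adjusted p = 0.0147), and every palmitate library was below every control library. Eif1, which guards start codon choice, was at −0.12 ± 0.18 (adjusted p = 0.645) and its paralogue Eif1b at 0.08.

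Of the eIF3 subunits, those that fell were the paired genes for the loosely bound subunit j, which is not part of the eIF3 core. Eif3j2 was at 222.1, 288.4 and 258.3 CPM in control and 155.0, 183.2 and 180.3 CPM in palmitate libraries. It fell by 0.57 ± 0.11 (adjusted p = 0.0115), the largest change of any member tested. Eif3j1 was at 109.2, 131.6 and 127.3 CPM in control and 80.8, 91.2 and 89.7 CPM in palmitate libraries, and Eif3j1 fell by 0.49 ± 0.09 (adjusted p = 0.0097). Neither overlapped between groups, and both calls were kept in 5 of 6 sets that left out a library. The pair are near-identical in sequence, so how reads divided between them is uncertain.

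The 12 other eIF3 subunits lay between −0.27 and 0.15 with none called. Eif3a (−0.27, adjusted p = 0.067), Eif3b (−0.20, 0.0802) and Eif3m (−0.20, 0.0914) were the ones that passed with the replicate block. Eif3c, Eif3d, Eif3f and Eif3k were above 0, at 0.03, 0.10, 0.15 and 0.06.

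In the eIF5 group the members that fell were the eIF5A genes, whose protein carries the amino acid hypusine and helps ribosomes through difficult peptide bonds in elongation and termination. Eif5a was at 1484, 1363 and 1391 CPM in control and 1099, 1165 and 1226 CPM in palmitate libraries. It fell by 0.28 ± 0.08 (adjusted p = 0.0337) without overlap, and the call was lost in each set that left out 1 library, where the adjusted p reached at most 0.105. Eif5a2, its scarcer paralogue, was at 42.8, 49.2 and 48.1 CPM in control and 34.0, 29.1 and 33.8 CPM in palmitate libraries. It fell by 0.53 ± 0.10 (adjusted p = 0.0101), also without overlap. Eif5, the GTPase activator of eIF2, was at −0.20 (adjusted p = 0.126) and Eif5b, which joins the subunits, at −0.28 ± 0.13 (adjusted p = 0.149); both passed with the replicate block.

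**Figure D4:**
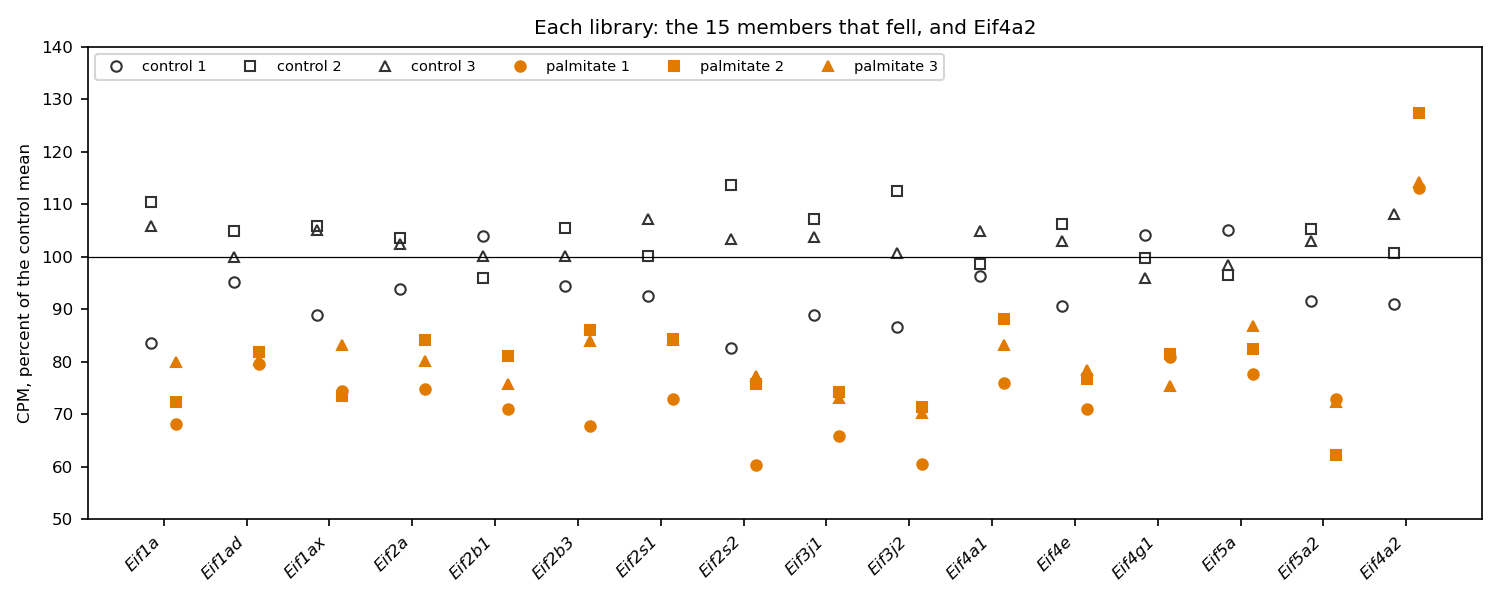
CPM as a percentage of the control mean in each of the 3 control and 3 palmitate libraries, for the 15 members that fell and for Eif4a2. In each of the 15 every palmitate library lies below every control library, and in Eif4a2 every palmitate library lies above.

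Transcript shares were compared within genes. Of 53 transcripts with at least 10% of their gene in the 22 members that had more than 1 such transcript, 6 did not overlap between groups (11.3%), beside 13.8% of 21072 such transcripts of all tested genes. Of the 6, 3 differed by 5 percentage points or more (5.66% of the 53, beside 10.3% of the 21072). The Eif4g1 transcript ENSMUST00000143939 held 32.0, 31.8 and 28.6% of Eif4g1 in control and 15.9, 25.5 and 20.5% in palmitate libraries. The Eif4e2 transcript ENSMUST00000113231 held 67.3, 67.1 and 68.6% in control and 61.6, 60.2 and 64.8% in palmitate libraries. The Eif4g3 transcript ENSMUST00000203828 held 25.1, 17.7 and 22.8% in control and 26.8, 31.7 and 26.6% in palmitate libraries. So the share was lower with palmitate in the Eif4g1 and Eif4e2 transcripts and higher in the Eif4g3 transcript. No test was run on these shares, which are estimates of the authors' quantification.

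Other translation genes, on lists outside the family, had calls in both directions. Of 58 tested, 8 rose and 14 fell, with a median log2 fold change of −0.02, beside 11.1% higher and 11.7% lower over all genes of the matrix (12.2% and 13.5% as transcript sums). With upper-quartile scaling 10 rose and 8 fell. The replicate block gave 11 that rose and 15 that fell. Over all genes of the matrix the block gave 16.5% higher and 16.6% lower (18.8% and 19.9% as transcript sums). Leaving out control 3 left 2 that rose and 1 that fell, control 2 left 3 and 4, palmitate 1 left 7 and 4, palmitate 2 left 3 and 7, and palmitate 3 left 3 and 5. Among 12 helpers of scanning, reinitiation and recycling, 6 fell. The recycling ATPase Abce1 fell by 0.45 (adjusted p = 0.0112), Denr, a reinitiation factor, by 0.51 (0.0128), and the helicase Ddx3x by 0.37. Of 4 termination genes tested 2 fell, the release factors Etf1 (−0.40, adjusted p = 0.0186) and Gspt1 (−0.39, 0.0234). The replicate block gave 3 of the 4 that fell. The 6 helpers and 2 release factors that fell each had a mean of 100 CPM or more. Of all genes that abundant, 23.8% fell in the matrix and 28.2% as transcript sums. The 2 hypusine enzymes gave no call.

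Among 22 genes of the cap complex and its mTORC1 control, 5 rose and 3 fell. Those that rose included Sesn1 (0.70, adjusted p = 0.0055) and Sesn3 (0.60, 0.00262), nutrient-stress inhibitors of mTORC1, and Tsc1 (0.58, 0.0209), a subunit of an mTORC1-inhibiting complex. Rptor (0.49, 0.0128), which encodes the substrate-binding subunit of mTORC1 itself, also rose, as did Mlst8 (0.40, 0.0357). Rps6kb1, the S6 kinase, fell by 0.31 (adjusted p = 0.0135). The RNA-binding proteins Larp1 (−0.31, 0.0303) and Larp4 (−0.44, 0.0473) also fell. Larp4 lost its call with the replicate block (adjusted p = 0.0778) and with limma-voom (0.0528), and with the block the list had 6 that rose and 2 that fell. Members of that list with opposite known roles thus rose together.

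Of 8 genes for the eIF2 kinases and phosphatase, Eif2ak2, the kinase sensing double-stranded RNA, fell by 0.59 (adjusted p = 0.0313). Eif2ak1, the haem-regulated kinase, fell by 0.28 (0.0245), and Impact, an inhibitor of the kinase Eif2ak4, rose by 0.36 (0.0414). Among 10 elongation genes Eef1g (0.27, adjusted p = 0.0399) and Eef2 (0.28, 0.0421) rose, and Eef1e1, which takes part in the multi-tRNA synthetase complex, fell by 0.58 (0.0106). In these further lists Sesn1, Sesn3 and Eef1e1 kept their call in all 6 sets that left out a library. Each other called gene named lost it in at least 1. With length offsets Eef1e1 was at −0.33 (adjusted p = 0.0603) and lost its call, as did Mlst8 (0.0626), Rps6kb1 (0.0792), Eef1g (0.0654) and Eef2 (0.0692). Sesn3, Mlst8 and Eef1e1 were read from transcript sums; in their gene matrix rows Sesn3 (adjusted p = 0.0526) and Mlst8 (0.0564) were not called. Gcn1, on the kinase and phosphatase list, was at 0.03 without a call (adjusted p = 0.796). With length offsets Gcn1 was lower, at −0.83 (edgeR, adjusted p = 0.00178). Its mean TPM was 105.4 in control and 61.38 in palmitate libraries. With the replicate block the kinase and phosphatase list had 2 that rose and 2 that fell, and the elongation list 3 and 2. Ppp1r15a (0.51, adjusted p = 0.166) was among those that rose with the block (0.00351).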

How the data were processed

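RNA of 3 control and 3 palmitate-treated CD8+ T cell samples was sequenced from SMARTER mRNA libraries, per the labels' protocols. Tools listed in the submitters' notes on processing were Salmon 1.10.0, Trim Galore 0.6.10 and, for the statistics, DESeq 1.42.0; the build listed was GRCm39. The authors deposited a matrix of estimated counts per gene and, per library, estimated counts and TPM per transcript. Matrix totals were 16724588 to 29362276 per library. Estimated counts were rounded. Transcript IDs were matched to GENCODE gene symbols (98.82% of 116224 transcripts) and summed per gene; the authors' matrix held less than 90% of the transcript reads for 5 members, which were read from those sums.

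Counts were scaled by TMM and tested with edgeR 4.0.16 (R 4.3.3; quasi-likelihood test, filterByExpr) on the 6 libraries without covariates. The p-values were adjusted by Benjamini-Hochberg over all genes of each table, with a threshold of 0.05. CPM values use the scaled library sizes. Standard errors are for the log2 fold change. Ratios used log2 of TPM with a pseudocount of 0.1. The script was tested on simulated data. Same-numbered libraries deviated together (correlations 0.226, 0.13 and 0.152), so the numbers were taken to pair the libraries. The main tests and the exact permutation tests nevertheless ignore the pairing. The fit with the replicate block is given where it changed a member's call or the counts of a further list. Alternatives were DESeq2 1.42.0, limma-voom 3.58.1, other scalings and filters, the replicate block and each library left out.

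Named genes were the called members, paralogue ratio members, the highest TPM per group, the largest change and up to 4 genes per further list by adjusted p; others were added after their values were seen. The members and lists were chosen with earlier results of these data known, so the p-values are not independent evidence. Gene coordinates other than the RefSeq windows were not used here, because the reference is GRCm38.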

Additional observations from a re-analysis of the deposited data

How the results depend on the processing

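Of the 15 initiation factors that fell, all 15 kept their call with DESeq2, with limma-voom and with the replicate block, and upper-quartile scaling lost Eif2b3, Eif2s1, Eif4a1 and Eif5a. Reading every member from the gene matrix gave 14 that fell, and from transcript sums 17. Members that fell ranged from 0 to 19 when a library was left out; members that rose numbered 1 with upper-quartile scaling, 1 with the replicate block (Eif4a2) and 0 to 0 with a library left out. Genes called in the gene matrix ranged from 690 to 3433 with a library left out (2759 with all). As transcript sums they ranged from 1305 to 4181 (3371 with all) and reached 5065 with the replicate block; the matrix gave 3993 with the block. The eIF2 median was −0.18 without palmitate 1 (−0.31 to −0.18 over the 6 sets). Of the other translation genes, 8 fell with upper-quartile scaling and 1 to 15 with a library left out; 5 rose with length offsets and 2 to 9 with a library left out. On CPM instead of TPM the Eif4a3 to Eif4a1 difference was 0.06 and the Eif4e2 to Eif4e difference 0.34. A minimum of 5 CPM left 48 members tested. The cause of these shifts was not tested. The sets that left out a library also held fewer libraries. No called gene changed sign under the alternatives run. Of uncalled values named, Eif1, Eif2b5, Eif2d, Eif3c, Eif3k, Eif4e2, Eif4e3 and Eif4ebp3 and the ratios Eif4a3 over Eif4a1 and Eif1b over Eif1 changed sign under at least 1. Gcn1, also uncalled, changed sign with length offsets. Depth was lowest in palmitate 3, at 16724588 counts.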
